A study of Sus scrofa with 12 samples.

Results

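Pig embryonic stem cells (ESCs) carried far less RNA than fetal fibroblasts for most of a set of 9 genes that cut, protect or build the extracellular matrix. The genes were MMP2, MMP14, TIMP1, TIMP2, TIMP3, PLAU, PLAT, SERPINH1 and LOX. They were chosen by name as matrix proteases, their inhibitors and genes of collagen handling, with earlier results of these data known. Each was found among the 30012 loci of the expression table. All 9 passed the filter on low values, which left 18278 loci for testing. TIMP2 was found through the symbol in its description, since the table spells its name differently.

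RNA was sequenced in 12 libraries, 3 from each of 4 kinds of cells. ESC7 and ESC3 are parthenogenetic lines, derived from activated eggs without a sperm genome, and ESC11 comes from an in vitro fertilised (IVF) embryo. The 3 ESC lines grew on feeder cells in KO-DMEM with serum replacement. The medium held 20 ng/mL FGF2 and 5 ng/mL ActA together with 1.5 µM CH and 2.5 µM IWR-1, and 10 µM Y-27632 was used around passaging. SSEA1-positive cells were then collected on magnetic columns. For the fibroblasts, fetal tissue at 30 days post coitum was the source, passage 6 was used, and no sort is given. Each line stands for 1 embryo, and the species of the feeder cells is not given in the sources used here.

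Matrix metalloproteinases (MMPs) are zinc enzymes made as inactive precursors that cut collagens and other matrix proteins. MMP14 sits in the cell membrane and activates the secreted gelatinase MMP2, with TIMP2 as the bridge between them, while the tissue inhibitors TIMP1, TIMP2 and TIMP3 block the active enzymes. The plasminogen activators PLAU (urokinase type) and PLAT (tissue type) turn plasminogen into plasmin, a serine protease that acts on fibrin and matrix. SERPINH1 belongs to the serpin family of inhibitors by sequence but works as a collagen chaperone inside the cell, and LOX cross-links collagen and elastin outside it. Fibroblasts are a main source of these proteins in connective tissue.

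Levels are the authors' FPKM (fragments mapped to a transcript, scaled to its length and to the size of the library). Read counts were not used here, and sequencing depth is unknown. Libraries had 21898 to 24100 loci above 0. Of all FPKM in a library, 54.8% to 80.6% lay on loci spanning under 300 bp, and none of the 9 genes lies on such a locus. The defining markers followed the labels: all 8 pluripotent stem cell markers were higher in ESCs, and their summed FPKM was 3288 to 3461 in ESC libraries and 1.31 to 1.74 in fibroblast libraries. All 12 fibroblast markers were lower in ESCs, with a summed FPKM of 80.1 to 123 in ESC libraries and 16447 to 16637 in fibroblast libraries.

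The first comparison asks how the matrix protease set differs between the stem cell lines and a differentiated cell of the same species. A gene was called when limma, fitted over all 12 libraries on log2(FPKM + 1), gave a Benjamini-Hochberg adjusted p under 0.05 and a log2 difference of at least 1 in size. By that rule 8 of the 9 genes were lower in ESCs, 0 were higher, and PLAT was not called. Over all tested loci, 14.9% were called lower and 28.1% higher. The median log2 difference was -2.76 over the 9 genes and 0.44 over all tested loci. For all 9 genes the ESC and fibroblast ranges did not overlap, 8 below and PLAT above, where 24.9% of all tested loci lay wholly below and 50.2% wholly above. TIMP3 and PLAU reached at most 0.978 and 0.963 in any ESC library, so they passed the filter at an FPKM of 1 through the fibroblasts alone. Their place wholly below the fibroblasts was therefore fixed by the filter. Standard errors and p-values of this comparison rest on the spread between libraries within a group, not on that between ESC lines. Fewer cells that make an RNA and less RNA per cell cannot be told apart in bulk samples.

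**Figure D1:**
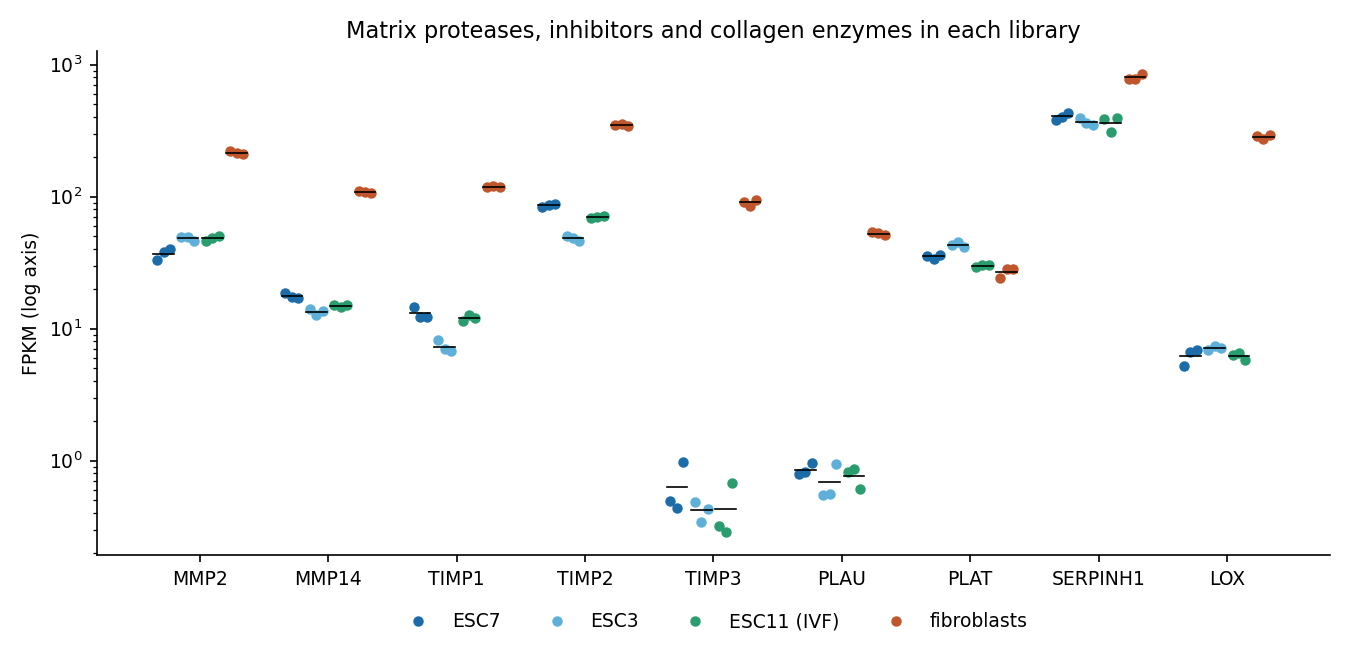
FPKM (log axis) of the 9 genes in each of the 12 libraries, with points for libraries and a short line for the mean of each group of 3. ESC points lie below fibroblast points for 8 genes, by the widest margin for TIMP3, and above them for PLAT.

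MMP2, the gelatinase (chromosome 6, 27526398 to 27553927, Sscrofa10.2), had an FPKM of 33.2, 38.0 and 40.0 in ESC7, of 49.8, 49.5 and 46.4 in ESC3, and of 46.4, 48.4 and 50.2 in ESC11. It had 219.95, 213 and 211 in fibroblasts. Every ESC library lay far below every fibroblast library, and the ESC mean was 20.8% of the fibroblast mean. MMP2 fell by 2.25 ± 0.05 on the log2 scale (limma SE, adjusted p = 1.45e-11).

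MMP14, the membrane protease that activates MMP2 (chromosome 7, 81413668 to 81425248), had 18.7, 17.4 and 16.9 in ESC7, 14.1, 12.8 and 13.5 in ESC3, and 15.2, 14.5 and 15.0 in ESC11, against 109, 109 and 107 in fibroblasts. The groups stood well apart, with ESCs at 14.1% of the fibroblast mean. MMP14 fell by 2.76 ± 0.04 on the log2 scale (adjusted p = 2.62e-13). A second MMP14 locus on scaffold GL896267.1 (67734 to 73583) was low throughout, at no more than 0.783 in ESCs and no less than 4.12 in fibroblasts.

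The 3 TIMP genes all fell, but to very different levels. TIMP1, a secreted inhibitor (chromosome X, 47372592 to 47376668), had 14.5, 12.3 and 12.2 in ESC7, 8.13, 7.03 and 6.78 in ESC3, and 11.4, 12.6 and 12.1 in ESC11, against 118, 120.1 and 118 in fibroblasts. ESCs kept 9.10% of the fibroblast mean, a fall of 3.38 ± 0.06 on the log2 scale (adjusted p = 2.46e-12).

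TIMP2, the inhibitor that also bridges MMP14 and MMP2 (chromosome 12, 3286148 to 3340447), had 83.4, 86.1 and 88.1 in ESC7, 50.7, 48.4 and 46.3 in ESC3, and 68.3, 69.7 and 70.9 in ESC11, against 349, 354 and 341 in fibroblasts. It remained the most abundant TIMP in each of the 12 libraries, at 19.6% of the fibroblast mean in ESCs. It fell by 2.38 ± 0.03 on the log2 scale (adjusted p = 2.64e-13).

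TIMP3, the inhibitor that binds to the matrix itself (chromosome 5, 11962126 to 12019254), had 0.492, 0.435 and 0.978 in ESC7, 0.485, 0.345 and 0.43 in ESC3, and 0.321, 0.286 and 0.678 in ESC11, against 91.6, 85.1 and 94.6 in fibroblasts. No ESC library reached an FPKM of 1, and the ESC mean was 0.547% of the fibroblast mean. Its fall of 5.95 ± 0.11 on the log2(FPKM + 1) scale (adjusted p = 2.59e-12) was the largest of the 9, and the pseudocount understates the change of a gene this low. SYN3, whose locus overlaps TIMP3 on the opposite strand, had 1.42 to 2.38 in ESCs and 0.0147 to 0.0651 in fibroblasts. SYN1, opposite TIMP1, had 2.92 to 3.97 in ESCs and 0.194 to 0.365 in fibroblasts. The strand setting is not stated, and whether the overlapping genes share reads with the TIMP loci was not tested.

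The plasminogen activators went separate ways. PLAU (chromosome 14, 82718582 to 82761495) had 0.788, 0.815 and 0.963 in ESC7, 0.547, 0.561 and 0.946 in ESC3, and 0.814, 0.861 and 0.608 in ESC11, against 54.0, 52.6 and 50.8 in fibroblasts. ESCs kept 1.46% of the fibroblast mean, and PLAU fell by 4.92 ± 0.08 on the log2 scale (adjusted p = 8.03e-13). CAMK2G, which overlaps the PLAU locus on the opposite strand, was at 23.6 to 27.4 in ESCs and 24.1 to 26.0 in fibroblasts.

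PLAT (chromosome 17, 13168731 to 13197225) had 35.8, 33.7 and 36.1 in ESC7, 42.7, 45.6 and 41.2 in ESC3, and 29.1, 30.3 and 30.1 in ESC11, against 24.3, 28.3 and 28.2 in fibroblasts. The lowest ESC library stood just above the highest fibroblast library. The log2 difference of 0.40 ± 0.05 (adjusted p = 2.22e-05) lay below the fold minimum and close to the middle of the table, since 48.3% of tested loci had a lower difference. After median-ratio scaling it was -0.05, so PLAT has no direction that holds under each scaling. As a share of the summed FPKM of both activators, PLAT made up 97.9% ± 0.575 across the 9 ESC libraries and 33.9% ± 2.50 across the 3 fibroblast libraries (mean ± SD).

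SERPINH1, the collagen chaperone (chromosome 9, 10966300 to 10977245), was the most abundant of the 9 genes in each library. It had 382, 403 and 432 in ESC7, 391, 363 and 349 in ESC3, and 389, 308 and 392 in ESC11, against 780.3, 779.6 and 855 in fibroblasts. ESCs kept 47.1% of the fibroblast mean, and the fall of 1.09 ± 0.08 on the log2 scale (adjusted p = 1.83e-07) was only just past the fold minimum. Its level was above that of 98.4% of tested Ensembl loci in ESCs and 99.4% in fibroblasts.

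LOX, the cross-linking oxidase (chromosome 2, 130884321 to 130900664), had 5.23, 6.68 and 6.84 in ESC7, 6.86, 7.37 and 7.17 in ESC3, and 6.34, 6.54 and 5.83 in ESC11, against 288, 273 and 292 in fibroblasts. The 9 ESC libraries were low and alike, at 2.30% of the fibroblast mean. LOX fell by 5.25 ± 0.07 on the log2 scale (adjusted p = 1.76e-13).

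The share of the fibroblast level that ESCs kept therefore ran from 0.547% for TIMP3 to 47.1% for SERPINH1 among the 8 genes that fell. The same share had a median of 0.575% over the 12 fibroblast markers, from 0.00996% for COL3A1, a fibrillar collagen, to 22.1% for TWIST2, a mesenchymal transcription factor. COL1A1 was at 0.279% and VIM, the mesenchymal intermediate filament, at 0.871%. Among other cell types, extraembryonic endoderm markers summed to 4.60 to 7.05 in ESC libraries and 1.94 to 2.20 in fibroblast libraries, with TTR at 0 in all 12. Most of the ESC sum was APOA1 (mean 3.89 in ESCs, 0.969 in fibroblasts) and GATA6 (1.45 and 0.926, not called). GATA4 went the other way (0.0512 and 0.140), and SOX17, FOXA2, HNF4A, AFP and SOX7 had low but higher means in ESCs. Smooth muscle markers summed to 17.0 to 28.2 in ESCs and 3600 to 3873 in fibroblasts. Endothelial markers summed to 1.04 to 1.75 in ESCs and 2.35 to 3.27 in fibroblasts, and blood markers to 1.27 to 2.36 in ESCs and 5.25 to 5.97 in fibroblasts. The higher fibroblast sums rested on PECAM1 (mean 0.642 in ESCs, 2.82 in fibroblasts) and CD14 (0.475 and 4.77). The other endothelial markers, KDR, VWF and TEK, had low but higher means in ESCs. So did the other blood markers, PTPRC, CSF1R, ITGAM and CD68. Trophectoderm markers, without a KRT7 locus of 117 bp, summed to 0.385 to 0.716 in ESCs and 10.6 to 11.9 in fibroblasts, with PLAC8 at 0 in ESCs. The part of these cell types in the results was not tested.

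**Figure D2:**
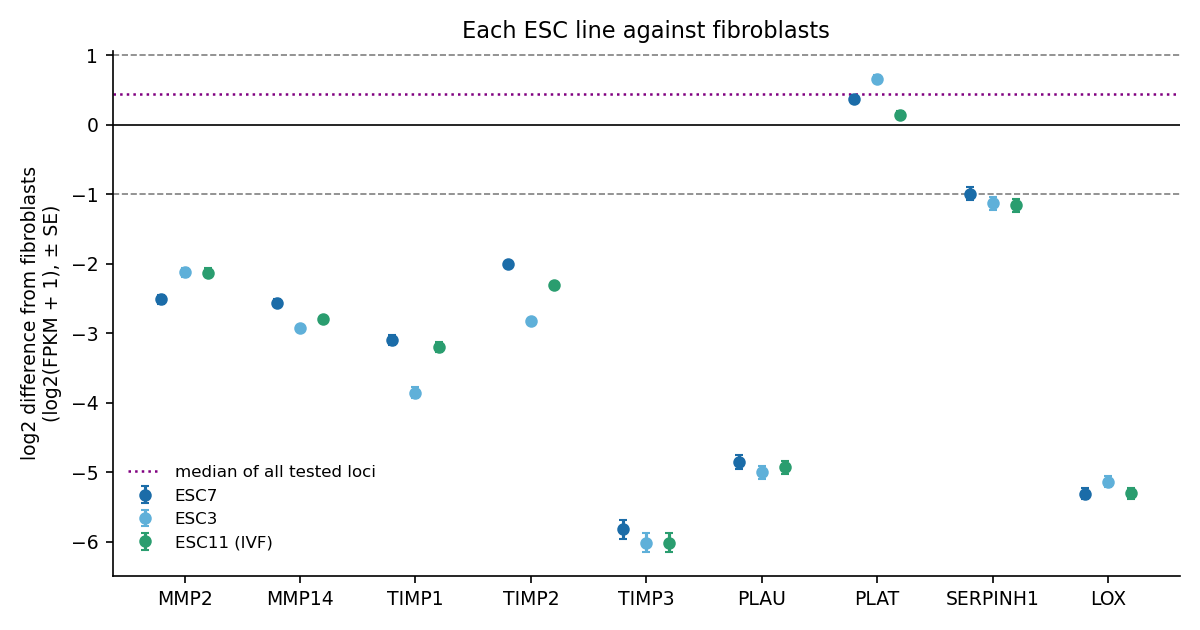
Difference from fibroblasts on the log2(FPKM + 1) scale for each ESC line, with standard errors from limma, dashed lines at 1 and -1 and a dotted line at the median of all tested loci (0.44). The 3 lines lie in the same direction from fibroblasts for each gene. For TIMP2, MMP14 and PLAT all 3 lie apart by more than their standard errors. ESC3 lies apart from the other lines in this way for TIMP1, and ESC7 for MMP2. SERPINH1 lies near the lower dashed line and PLAT around the dotted one.

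Each line was also set against the same 3 fibroblast libraries, so these comparisons share their controls. In ESC7, 7 of the 9 genes were called lower, where 14.3% of all tested loci were. In ESC3 the count was 8, against 15.5% of all loci, and in ESC11 it was 8, against 15.5%. The gene that parted them was SERPINH1, at -0.99 ± 0.10 in ESC7, -1.13 ± 0.10 in ESC3 and -1.15 ± 0.10 in ESC11. Its value in ESC7 was past the fold minimum with quantile normalization (-1.22), with median-ratio scaling (-1.47) and with scaling to the same sum (-1.19), and also without ESC7 library 3, fibroblast library 1 or fibroblast library 2 (-1.03, -1.01 and -1.01). PLAT was at 0.38 ± 0.06 in ESC7, 0.66 ± 0.06 in ESC3 and 0.15 ± 0.06 in ESC11.

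The makeup of the inhibitors differed between the cell types. TIMP2 made up 86.3% ± 1.33 of the summed TIMP FPKM in ESC7, 86.3% ± 0.693 in ESC3, 84.8% ± 0.474 in ESC11 and 62.5% ± 0.851 in fibroblasts (SD, n = 3 each). TIMP3 made up 0.635%, 0.747% and 0.52% in these lines and 16.2% ± 0.957 in fibroblasts. TIMP1 took 12.1% to 15.3% in ESC libraries and 21.1% to 21.5% in fibroblast libraries.

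Inhibitor and protease RNA were also set against each other, as the summed FPKM of the 3 TIMP genes over that of MMP2 and MMP14. The ratio was 1.90, 1.78 and 1.78 in ESC7, 0.928, 0.897 and 0.892 in ESC3, 1.30, 1.31 and 1.28 in ESC11, and 1.69, 1.74 and 1.74 in fibroblasts. The ESC lines did not overlap each other in it, and the fibroblast libraries fell between ESC11 and ESC7. The summed TIMP FPKM was 99.5 ± 1.57 in ESC7, 56.2 ± 2.92 in ESC3, 82.1 ± 1.84 in ESC11 and 557 ± 3.21 in fibroblasts, and the summed MMP2 and MMP14 FPKM was 54.7 ± 2.60, 62.0 ± 1.98, 63.2 ± 1.84 and 323 ± 5.63 in the same order (SD, n = 3 each). The ratio joins genes whose proteins act in different places, and no test was made of it.

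**Figure D3:**
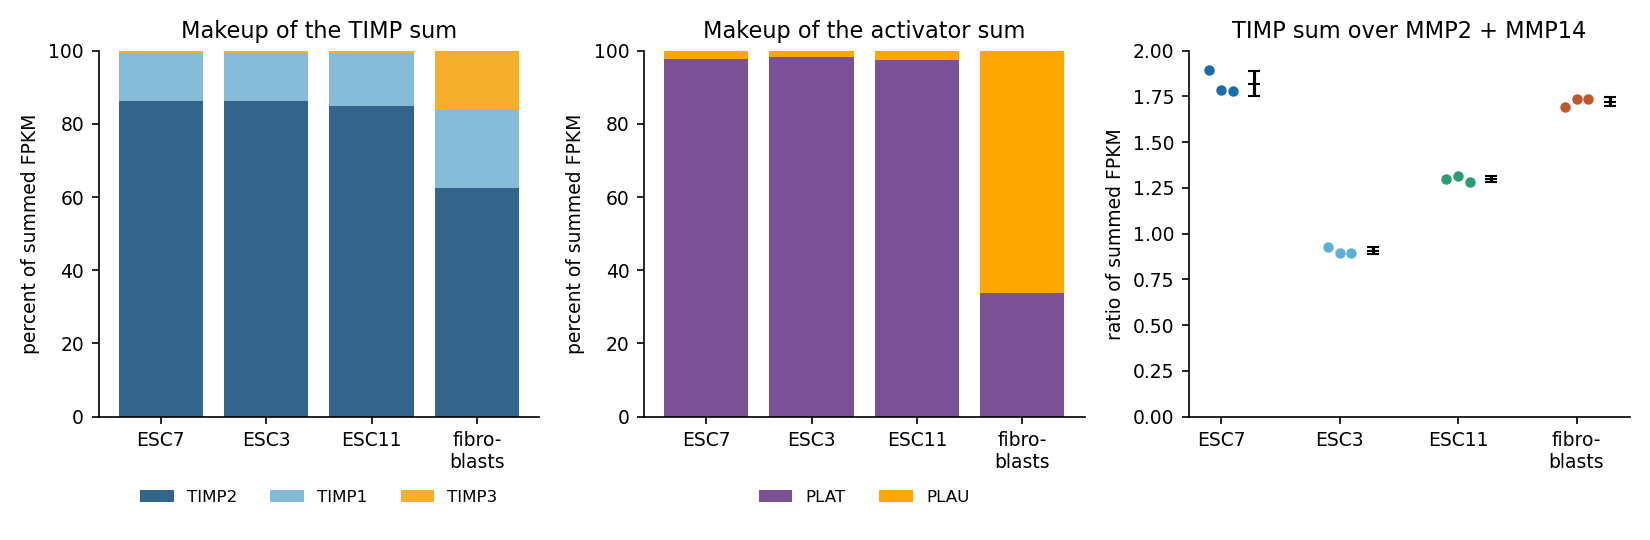
Mean share of TIMP2, TIMP1 and TIMP3 in their summed FPKM (left), of PLAT and PLAU in theirs (middle), and the ratio of the TIMP sum to the sum of MMP2 and MMP14 in each library with mean and SD (right). TIMP3 and PLAU take a visible share in fibroblasts and almost none in ESCs, and the ratio separates the ESC lines at about 1.82, 0.906 and 1.30.

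The ESC lines were then compared with each other, which asks whether line or origin shifts the same genes. With the fold minimum, limma called 0 of the 9 genes in ESC7 against ESC3 (3.38% of all tested loci were called), 0 in ESC3 against ESC11 (2.48%), 0 in ESC7 against ESC11 (2.94%) and 0 in the mean of the parthenogenetic lines against ESC11 (2.2%). At an unadjusted p under 0.05 the counts in the same order were 5, 4, 4 and 4 of 9, where 47.6%, 35.2%, 41.3% and 32.8% of all tested loci passed. At an adjusted p under 0.05 with no fold minimum they were 5, 3, 4 and 4, where 39.9%, 23.0%, 30.9% and 19.7% of all tested loci passed, so small differences between lines were common in the table. Among the 9 genes these were TIMP1, TIMP2, MMP2, MMP14 and PLAT, while TIMP3, PLAU, SERPINH1 and LOX were not past the adjusted p in any pair of lines. The directions of the differences past the adjusted p held after quantile normalization and median-ratio scaling. Scaling to the same summed FPKM turned MMP14, TIMP2 and PLAT round in ESC7 against ESC11, and PLAT in the other pairs, and it put the median of all loci at -1.16 in ESC3 against ESC11.

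TIMP2 separated all 3 lines. Its mean FPKM was 85.9 ± 2.39 in ESC7, 48.5 ± 2.20 in ESC3 and 69.6 ± 1.27 in ESC11 (SD, n = 3 each), and no library of one line overlapped another line. ESC7 was above ESC3 by 0.81 ± 0.04 on the log2 scale (limma, adjusted p = 2.3e-07) and above ESC11 by 0.30 ± 0.04 (adjusted p = 0.000331), and ESC3 differed from ESC11 by -0.51 ± 0.04 (adjusted p = 1.08e-05). TIMP1 was also lowest in ESC3, at 7.31 ± 0.719, with 13.0 ± 1.31 in ESC7 and 12.04 ± 0.589 in ESC11. The TIMP1 difference was 0.76 ± 0.07 for ESC7 against ESC3 (adjusted p = 3.21e-05) and -0.65 ± 0.07 for ESC3 against ESC11 (adjusted p = 0.000204), while ESC7 and ESC11 overlapped and differed by 0.10 ± 0.07 (adjusted p = 0.337).

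The proteases moved in other patterns. MMP14 averaged 17.7 ± 0.906 in ESC7, 13.5 ± 0.672 in ESC3 and 14.9 ± 0.372 in ESC11. ESC7 was above ESC3 by 0.37 ± 0.05 (adjusted p = 0.000127) and above ESC11 by 0.23 ± 0.05 (adjusted p = 0.00347), and the difference between ESC3 and ESC11 was -0.14 ± 0.05 (adjusted p = 0.053). MMP2 was instead lowest in ESC7, at 37.1 ± 3.51, with 48.6 ± 1.85 in ESC3 and 48.3 ± 1.92 in ESC11. The MMP2 difference was -0.39 ± 0.06 for ESC7 against ESC3 (adjusted p = 0.000843) and -0.38 ± 0.06 for ESC7 against ESC11 (adjusted p = 0.00146), with no separation of ESC3 from ESC11 (0.01 ± 0.06, adjusted p = 0.961). Of the 3 lines, ESC7 thus had the lowest MMP2 mean and the highest MMP14, TIMP1 and TIMP2 means.

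PLAT also separated all 3 lines, at 35.2 ± 1.32 in ESC7, 43.2 ± 2.23 in ESC3 and 29.8 ± 0.657 in ESC11. The difference was -0.29 ± 0.06 for ESC7 against ESC3 (adjusted p = 0.00408), 0.52 ± 0.06 for ESC3 against ESC11 (adjusted p = 0.000245) and 0.23 ± 0.06 for ESC7 against ESC11 (adjusted p = 0.0173). In the mean of the parthenogenetic lines PLAT was above ESC11 by 0.37 ± 0.05 (adjusted p = 0.000878), and it was the only one of the 9 genes on which both parthenogenetic lines differed from ESC11 in the same direction past the adjusted p. The same contrast was -0.19 for MMP2 (adjusted p = 0.039), -0.27 for TIMP1 (adjusted p = 0.0147) and -0.11 for TIMP2 (adjusted p = 0.0494). None of these is a shift shared by both lines. The TIMP2 value joins lines on opposite sides of ESC11. For TIMP1 it joins -0.65 in ESC3 with 0.10 in ESC7, and for MMP2 it joins -0.38 in ESC7 with 0.01 in ESC3, each against ESC11. With 2 parthenogenetic lines and 1 IVF line, origin and line cannot be told apart. Extraembryonic endoderm markers summed to 6.82 to 7.05 in ESC7, 4.60 to 5.68 in ESC3 and 5.02 to 5.78 in ESC11, and 3 of the 9 had a higher mean in ESC7 than in ESC3. Among them the endoderm factor GATA6 was called, at 2.57 in ESC7 and 0.724 in ESC3. Fibroblast markers summed to 88.6 to 104 in ESC7, 96.5 to 123 in ESC3 and 80.1 to 85.4 in ESC11. Of these 12 markers, 8 had a higher mean in ESC7 than in ESC3, and 10 had a higher mean in ESC7 than in ESC11. The one called was TWIST2, at 4.78 in ESC7 and 1.12 in ESC11, and the part of these cell types in the line differences was not tested.

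**Figure D4:**
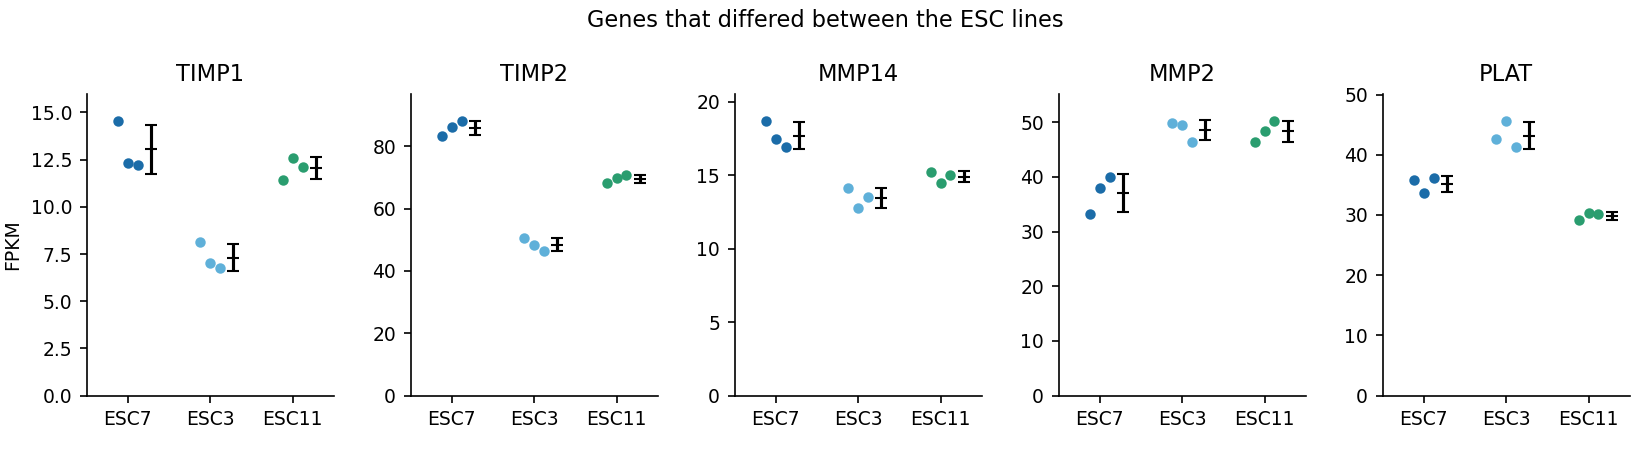
FPKM of the 5 genes that differed between ESC lines, in each library of ESC7, ESC3 and ESC11, with mean and SD beside the points and axes from 0. TIMP1 and TIMP2 are lowest in ESC3, MMP2 is lowest in ESC7, and PLAT is highest in ESC3, an order of PLAT that scaling to the same sum does not keep.

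Among the other genes, LOX averaged 6.25 ± 0.884 in ESC7, 7.13 ± 0.259 in ESC3 and 6.24 ± 0.366 in ESC11, and its 3 ESC3 libraries lay just above every ESC7 and ESC11 library. SERPINH1 averaged 406 ± 24.8 in ESC7, 368 ± 21.6 in ESC3 and 363 ± 47.3 in ESC11. PLAU averaged 0.856 ± 0.0943, 0.685 ± 0.226 and 0.761 ± 0.135 in ESC7, ESC3 and ESC11, and TIMP3 averaged 0.635 ± 0.298, 0.42 ± 0.0707 and 0.429 ± 0.217 (SD, n = 3 each).

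The wider families were described from 7 lists with 136 genes, of which 123 were in the table. The counts below stand beside 14.9% of all tested loci called lower and 28.1% called higher, with a median log2 difference of 0.44. No list was tested as a set, and a count near these shares is not particular to its list. Among the genes named below, MMP1, ADAM12, ADAMTS9, THBS2, FAP and DPP4 stayed below an FPKM of 1 in each ESC library. MMP25, ADAMTS19, SPOCK2, ST14, SPINT1 and TMPRSS2 did so in each fibroblast library. Such genes passed the filter through 1 side of the comparison alone. Their direction was therefore fixed by the filter, and the counts include them. Of 8 tested other MMP genes, 4 fell and 1 rose in ESCs against fibroblasts, with a median log2 difference of -0.99 that was 0.02 with no filter on low values. MMP1, the interstitial collagenase, was above 0 in a single ESC library, at 0.0680, and averaged 108 ± 2.47 across the fibroblast libraries, with a log2 difference of -6.75 ± 0.04 (limma, adjusted p = 6.63e-16). MMP19, MMP23B and MMP16 fell by 3.50, 3.01 and 1.99 on the log2 scale, and MMP25, a membrane-anchored MMP, rose to 16.9 ± 1.75 in ESCs, against 0.77 ± 0.251 in fibroblasts. Of the 17 in the table, 9 stayed below the filter, among them MMP3, MMP9 and MMP13. MMP17, another membrane-anchored member, was the one called between lines, lower in ESC7 than in ESC3 by a log2 difference of -1.497 (adjusted p = 8.29e-06).

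Of 22 tested ADAM and ADAMTS proteases, 7 fell, 2 rose and 13 were not called (median -0.23). After quantile normalization or median-ratio scaling 9 fell, and ADAMTS12, one of those that rose, was not called with quantile normalization or a pseudocount of 5. ADAM12, a metalloprotease of mesenchymal cells, had 0.165 ± 0.0783 in ESCs and 68.0 ± 2.72 in fibroblasts, and ADAM19, ADAMTS9 and ADAMTS2, the last a procollagen-processing enzyme, fell by 3.12, 2.96 and 2.96 on the log2 scale. ADAMTS19 was listed at 0 in fibroblasts and had 4.84 to 24.4 in ESC libraries.

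Of 8 tested genes of the plasminogen system, 4 fell and 2 rose (median -0.96). PLAUR, the urokinase receptor, had 6.12 ± 0.253 in ESCs and 69.6 ± 1.93 in fibroblasts. ANXA2 and S100A10, which together bind PLAT and plasminogen at the cell surface, fell by 2.80 and 1.85. F2R, a thrombin receptor, rose by 3.62 and SERPINI1, a neural inhibitor of PLAT, by 1.97. SERPINI1 was at 0.83 with a pseudocount of 5. Plasminogen itself, PLG, was listed at 0 in all 12 libraries.

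Of 13 tested other regulators of metalloproteinases, 5 fell and 2 rose (median -0.39). The thrombospondins THBS1 and THBS2 fell by 6.53 and 4.35, PCOLCE, an enhancer of procollagen processing, by 3.33, and TFPI2, a Kunitz inhibitor, by 2.07 on the log2 scale. The matrix proteoglycans SPOCK2 and SPOCK3 rose by 3.19 and 1.99. RECK, a membrane inhibitor of MMPs, was at -0.36 ± 0.12 and TIMP4 at 0.85 ± 0.15, neither called.

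Genes of collagen folding and cross-linking, which work beside SERPINH1 and LOX, had 18 of 20 tested lower and 0 higher (median -2.15). P4HA3, a collagen prolyl hydroxylase subunit, had 1.06 ± 0.179 in ESCs and 80.7 ± 1.05 in fibroblasts, and BMP1, LOXL4 and LOXL2, a procollagen proteinase and relatives of LOX, fell by 3.48, 3.36 and 3.21. SERPINH1 had a smaller difference, -1.09, but these genes were named for the largest falls in the list. TLL1 and COLGALT1 were close to SERPINH1, at -1.12 and -1.13. PPIB, a proline isomerase that works on many secreted proteins, was at 0.32 ± 0.07, not called.

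Cathepsins and cystatins had 5 of 11 tested genes lower and 2 higher (median -0.45). CST3, the secreted cysteine protease inhibitor, fell by 3.10, LGMN, the lysosomal legumain, by 2.98, CTSH by 2.09 and CTSA by 1.57, while CTSC rose by 1.61 and CTSZ by 1.18 on the log2 scale. CTSZ was under the fold minimum after median-ratio scaling, quantile normalization or with a pseudocount of 5. It also differed between lines, at 18.1 in ESC7, 5.03 in ESC3 and 12.5 in ESC11, against 4.13 in fibroblasts, so ESC3 lay close to fibroblasts. CTSL was higher in ESC7 than in ESC3 by 1.05 ± 0.04.

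Membrane serine proteases and Kunitz inhibitors had 6 of 10 tested genes higher and 3 lower in ESCs (median 4.17). ST14, the epithelial protease matriptase, had 234 ± 46.7 across the 9 ESC libraries and 0.00595 ± 0.0103 across the 3 fibroblast libraries (mean ± SD), and its inhibitors SPINT1 and SPINT2 had 91.5 ± 12.7 and 245 ± 20.9 in ESCs and 0.0567 ± 0.0318 and 1.53 ± 0.536 in fibroblasts. TMPRSS2 was listed at 0 in fibroblasts and averaged 181 in ESC7, 58.5 in ESC3 and 117 in ESC11, with a log2 difference of 1.61 ± 0.05 for ESC7 against ESC3 (adjusted p = 5.2e-09). FAP, a surface protease of activated fibroblasts, fell by 3.54, and its relative DPP4 had a log2 difference of -3.196.

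**Figure D5:**
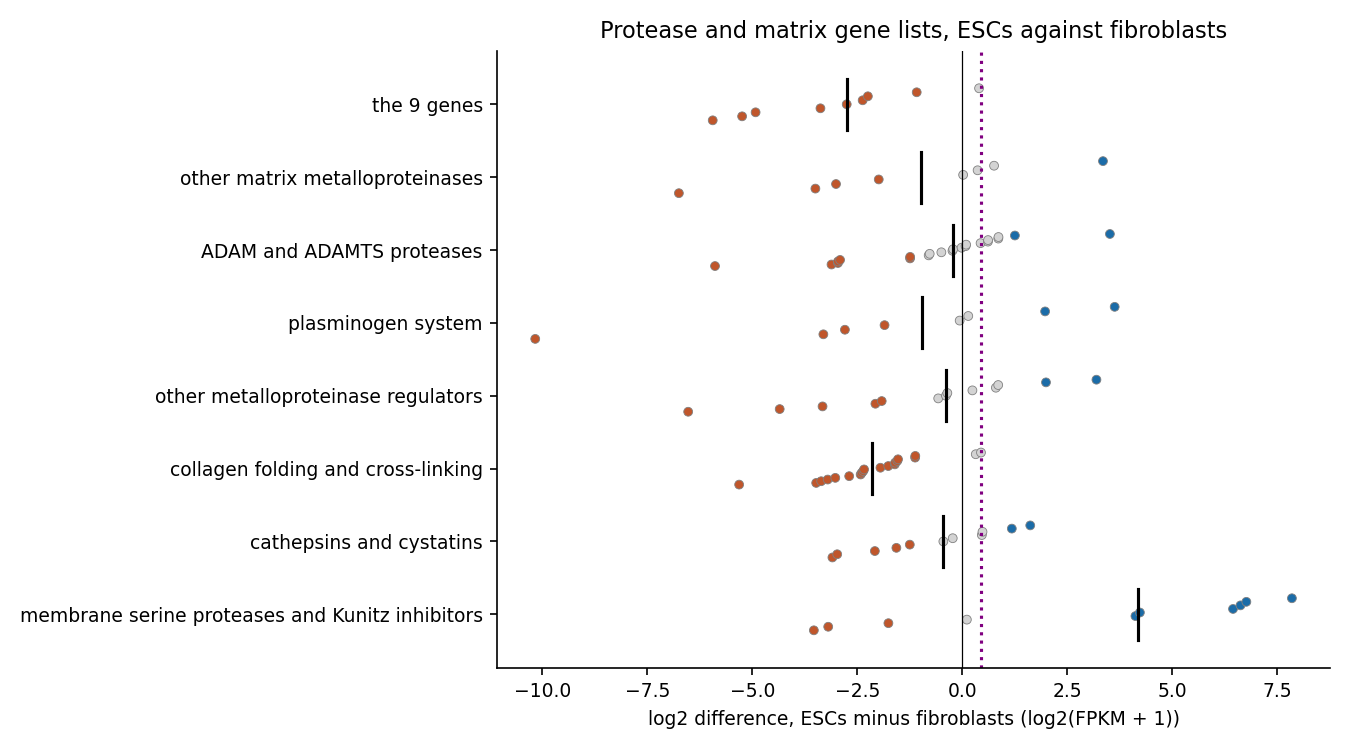
Log2 difference between ESCs and fibroblasts of every tested gene in the 9-gene set and the 7 wider lists, orange where called lower, blue where called higher and grey where not called, with a black line at each list's median and a dotted line at the median of all tested loci. The collagen list lies almost wholly to the left, and the membrane serine protease list has most of its genes to the right.

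The named Ensembl loci whose profile over the 12 libraries was most like that of each gene were found by the root mean square difference of log2(FPKM + 1), each locus centred on its own mean. For MMP14 the nearest was ANXA2, at 0.0753, with a mean FPKM of 259 in ESCs and 1804 in fibroblasts. For TIMP2 they were EHD2 (0.0723) and DAP (0.0746), for MMP2 TSPAN18 (0.102), and for TIMP1 GUCY1B3 (0.126). For TIMP3 the nearest was DAB2, at 0.149, with 0.541 in ESCs and 80.6 in fibroblasts. For PLAU the nearest was CSPG4 (0.102), for LOX DKK2 (0.116) and for SERPINH1 CYB5R3 (0.0679), with 69.8 in ESCs and 145 in fibroblasts for the last. For PLAT they were CP072_XENTR (0.0895) and BEST1 (0.0986).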

How the data were processed

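The table holds FPKM values computed and deposited by the authors, 1 column per library. Sscrofa10.2, Cufflinks 2.1.1 and STAR 2.4.0b are named, without roles, in the submitters' processing notes, and per the labels' protocols the libraries were TruSeq polyA, read as 100 bp paired ends. Annotation, strand setting and treatment of multiply mapped reads are not given in the sources used here. Depth is unknown, so no counting interval is given.

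A symbol on several loci was read on the annotated locus with the highest mean FPKM. Loci that reached an FPKM of 1 in 3 or more libraries were fitted as log2(FPKM + 1), as 4 group means, with limma 3.58.1 in R 4.3.3 (trended variances, two-sided tests, adjustment over all 18278 loci). The fit was tested on simulated data with independent noise and no line differences or scaling shifts, so it does not cover those. It called 92 of 100 loci moved by 1.5 on the log2 scale, with errors up to 0.93. Of 100 loci moved by 3 it called 97, and of 18078 unmoved loci 1. The moved loci were drawn only from those above a minimum mean level, so their counts do not cover loci with lower levels. Tables and plots used Python 3.11.15, pandas 2.3.3 and matplotlib 3.10.9.

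The genes and lists were chosen with earlier results of these data known. Named list genes are the called genes with the largest differences, up to 4 higher and 4 lower, whose higher group averaged an FPKM of 5 or more, and genes called between lines. PPIB, RECK, TIMP4, SERPINI1, SPOCK1, PLG and other list genes and markers named outside this rule were chosen after their values were seen. One gene that this rule names is not reported here. Nothing in the labels says that libraries of a group are separate cultures, so p-values measure only library spread, possibly technical. Alternatives were other pseudocounts, filters, scalings and variance settings, Ensembl loci alone, summed loci, a replicate term and leaving out each library.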

Additional observations from a re-analysis of the deposited data

Results flagged for a closer look

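The effect against fibroblasts differed between ESC lines for 5 of the 9 genes, by limma's test of the difference between the lines themselves at an adjusted p under 0.05. Of 27 such tests, 12 passed, each below the fold minimum, where 39.9% of all tested loci passed in ESC7 against ESC3, 23.0% in ESC3 against ESC11 and 30.9% in ESC7 against ESC11. For ESC7 against ESC3 the log2 differences were 0.81 for TIMP2, 0.76 for TIMP1, 0.37 for MMP14, -0.29 for PLAT and -0.39 for MMP2. For ESC3 against ESC11 they were -0.65 for TIMP1, -0.51 for TIMP2 and 0.52 for PLAT. For ESC7 against ESC11 they were 0.30 for TIMP2, 0.23 for MMP14, 0.23 for PLAT and -0.38 for MMP2. No ESC library stood apart from the other 8 for any of the 9 genes by Dixon's criterion. Chance alone passes it in about 1 in 20 sets of values drawn from the same population. The check pooled the ESC lines, and differences between lines, as found for 5 of the 9 genes, widen the range it uses. It therefore cannot decide whether a library stood apart within its own line.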

How the results depend on the processing

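The 8 genes called lower in ESCs were called under each of the 24 alternatives, with 7 to 8 called in ESC7 when single libraries were left out. Scaling to the same summed FPKM changed the line comparisons. Short loci hold most of that sum, and the scaling moved the median of all loci to -1.16 for ESC3 against ESC11, -0.86 for ESC7 against ESC11 and 0.27 for ESC7 against ESC3. With it, 5 of the 9 genes were called in parthenogenetic against IVF ESCs, 6 in ESC3 against ESC11 and 1 in ESC7 against ESC11, where 0 were called as deposited. Of all loci, 53.7%, 67.0% and 32.9% were called in these comparisons with this scaling. For ESC7 against ESC11, MMP14 turned to -0.76, TIMP2 to -0.73 and PLAT to -0.79. PLAT also turned to -0.79 for ESC3 against ESC11 and to 0.0057 for ESC7 against ESC3, and to -0.047 for ESCs against fibroblasts with median-ratio scaling. Relative to the median of all loci, PLAT was at 0.37 for ESC3 against ESC11 and -0.26 for ESC7 against ESC3 with the same-sum scaling. The fibroblast ratio of TIMP to MMP FPKM was 1.70 with summed loci, against 1.72. Over all loci, 5144 were higher and 2730 lower in ESCs as deposited, 3489 and 3476 after quantile normalization, and 3511 and 3811 after median-ratio scaling. With a replicate block 8 of the 9 genes were called lower, and 7880 loci in all against 7874. The numbers do not pair the libraries: deviations of same-numbered libraries correlated between -0.0900 and 0.0867, and a library was nearest its own number in 8 of 36 checks.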

Other observations

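SPOCK1, a matrix proteoglycan, had an FPKM of 28.4 in ESC11 library 1, between 0.121 and 0.221 in the other 8 ESC libraries, and 1.19 to 1.78 in fibroblasts.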
